A study of Mus musculus with 6 samples.

Results

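The genes that carry decitabine into the cell, activate or inactivate it, and supply the deoxynucleotides with which it competes were examined in TC-1/A9 mouse tumour cells treated with decitabine and trichostatin A. The set was defined by name and holds 10 genes: Slc29a1, Slc29a2, Dck, Cda, Dctd, Samhd1, Rrm1, Rrm2, Tyms and Dut. All probes that the array annotation assigns to these symbols were taken, which gave 16 probes of 9 genes among the 9192 genes measured. Slc29a2 had no named probe among those kept, so that no value is given for it. TC-1/A9 is a subline with low surface MHC class I of TC-1, C57BL/6 lung cells transformed with the HPV16 E6 and E7 oncogenes and activated Ha-ras. Treated cells received 3 µM decitabine (DAC), a DNA methyltransferase inhibitor, for 48 h with the medium renewed on the way, and then 30 ng/ml trichostatin A (TSA), a histone deacetylase inhibitor, for a further 24 h. Control cells were left untreated. Each group had 3 biological replicates with 1 Illumina Mouse WG-6 array each. No group received either agent alone, so that the effects of DAC and TSA cannot be told apart, and all cells came from 1 line.

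Decitabine is a deoxycytidine analogue. It enters cells through equilibrative nucleoside transporters, is phosphorylated first by deoxycytidine kinase, and is inactivated by cytidine deaminase or, once phosphorylated, by deoxycytidylate deaminase. The triphosphate is a substrate of SAMHD1, and it is built into DNA in place of dCTP, where it traps DNA methyltransferases. Ribonucleotide reductase, thymidylate synthase and dUTPase set the natural pools of deoxynucleotides beside which the drug is used.

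Promoter sequences were examined because the drug acts on CpG methylation and because partner genes of this set were not called alike. RefSeq start sites were found for all 10 genes on GRCm38.p6, and the 250 bases before each start were read, 5′ to 3′ on the strand of the gene. Rrm1 and Rrm2 are shown as the partner subunits of 1 enzyme, Tyms as a called gene with few CpGs, and Samhd1 as the gene whose probes disagreed. The windows lie at chr7:102441445-102441694 on the plus strand (Rrm1), chr12:24708004-24708253 on the plus strand (Rrm2), chr5:30073626-30073875 on the minus strand (Tyms) and chr2:157135097-157135346 on the minus strand (Samhd1). Capitals mark CpG dinucleotides.
Rrm1: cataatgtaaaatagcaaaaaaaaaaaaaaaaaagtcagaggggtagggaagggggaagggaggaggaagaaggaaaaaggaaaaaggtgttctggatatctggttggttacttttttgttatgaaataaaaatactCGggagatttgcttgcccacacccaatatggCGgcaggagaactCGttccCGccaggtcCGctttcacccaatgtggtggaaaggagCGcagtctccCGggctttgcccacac
Rrm2: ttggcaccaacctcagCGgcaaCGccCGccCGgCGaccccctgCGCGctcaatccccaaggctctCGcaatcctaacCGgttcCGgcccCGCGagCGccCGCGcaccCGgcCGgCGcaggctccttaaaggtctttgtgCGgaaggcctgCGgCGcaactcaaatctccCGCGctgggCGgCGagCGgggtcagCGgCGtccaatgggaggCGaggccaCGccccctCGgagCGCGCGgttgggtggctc
Tyms: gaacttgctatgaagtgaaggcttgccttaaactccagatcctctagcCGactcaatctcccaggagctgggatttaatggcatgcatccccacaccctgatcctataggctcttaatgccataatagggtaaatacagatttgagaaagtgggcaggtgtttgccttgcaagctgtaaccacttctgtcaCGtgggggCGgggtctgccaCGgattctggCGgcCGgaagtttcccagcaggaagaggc
Samhd1: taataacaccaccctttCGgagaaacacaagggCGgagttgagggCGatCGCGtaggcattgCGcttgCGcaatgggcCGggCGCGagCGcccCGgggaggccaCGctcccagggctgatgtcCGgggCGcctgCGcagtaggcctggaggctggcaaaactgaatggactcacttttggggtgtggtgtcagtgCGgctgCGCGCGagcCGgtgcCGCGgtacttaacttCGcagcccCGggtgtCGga

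The Rrm2 window held 34 CpGs, more than 93.4% of the 9595 windows of the genes tested, whose median was 16. The Tyms window held 6 CpGs and the Rrm1 window 7, both below the lower quartile of 9. The Samhd1 window held 26 CpGs, the Dut window 33, the Dck window 18, the Slc29a2 window 16 and the Cda window 14. The windows of Dut, Cda and Slc29a2 lay wholly inside the annotated gene, downstream of its outermost start, and that of Tyms lay partly inside it. Dctd had 3 start sites with 4 to 7 CpGs, and Slc29a1 had 8 start sites with 2 to 24. Of the called genes, Rrm2 thus had a CpG-rich and Tyms a CpG-poor window, and the windows of Slc29a1 spanned both. Dut, almost as rich in CpG as Rrm2, was not called, but its probe was dim and close to the detection limit. Whether CpG content goes with the calls was not tested. The letters CCAAT, searched on both strands, stood 91 and 45 bases before the Rrm1 start and 50 bases before the Rrm2 start, in 1 window of Slc29a1 and in those of 2 neighbouring starts of Dctd, and 35.2% of the windows of tested genes hold them. TTCCCGC, an E2F-type core searched on both strands, stood 67 bases before the Rrm1 start and 9 bases before 1 of the Slc29a1 starts, and in no window of the other genes. This core is held by 7.1% of the windows. GGGCGG, an Sp1-type box searched on both strands and held by 58.7% of the windows, stood 5 times in the Dck window, 8 times over the windows of Slc29a1, 2 times in that of Rrm2 and 1 time in each of those of Tyms, Samhd1, Cda and Dut. It also stood in the windows of 2 Dctd starts and was absent from those of Rrm1 and Slc29a2. These matches describe letters only, and no binding or methylation at these sites was measured by the arrays.

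Values are quantile-normalised log2 signals, and a difference is the mean of the DAC/TSA-treated arrays minus that of the untreated arrays. A gene is represented by its brightest kept probe, and a difference was called at a false discovery rate (FDR) of at most 0.01 in limma with Benjamini-Hochberg adjustment over 17445 probes. Signals were not background-subtracted, so that differences of dim probes are smaller than those of the RNA. The arrays were even: 14704 to 14802 of 45281 probes were detected on the untreated and 15008 to 15783 on the treated arrays, and the lowest correlation within a group was 0.992. Marker lists of other cell types were read beside the genes, as summed linear signals of their measured members. The counts called stand beside 22.5% of all genes called higher and 21.4% lower. Of 10 fibroblast and mesenchymal markers 8 were measured, of which 1 was called higher and 4 lower. Their differences ran from -2.70 (Acta2) to 2.56 (Thy1). The sum was 17200 to 18300 on the untreated and 8760 to 9640 on the treated arrays. Vim was the brightest of them (13.46 ± 0.03 in untreated cells, SD, n = 3) and fell by 0.67 (adjusted p = 7.24e-05). Acta2 was the next brightest (12.39 in untreated cells), so that the sum mostly reads Vim and Acta2. Of 12 lung epithelial markers 3 were measured (Napsa, Abca3 and Aqp5), of which 2 were called higher, and the sum was 792 to 868 on the untreated and 1670 to 1720 on the treated arrays. Aqp5 rose by 2.11, Napsa by 0.48 and Abca3, not called, by 0.30. Nkx2-1, Sftpc, Epcam and Cdh1 had no named probe kept. Of 14 immune cell markers 4 were measured, 2 called higher and 2 lower, with a sum of 444 to 468 on the untreated and 373 to 390 on the treated arrays, and Ptprc and Cd3e had no named probe kept. Of 7 endothelial markers 3 were measured, 2 called higher and 1 lower, with a sum of 1730 to 1830 on the untreated and 1790 to 2030 on the treated arrays. Some markers passed the detection filter through 1 group alone. Napsa and Lyz2 were detected on treated arrays only, and Cd79b, Col3a1 and Pdgfrb on untreated arrays only. All of these but Pdgfrb are among the calls. The part of the marker shifts in the results was not tested.

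Of the 9 measured genes, 3 were upregulated after DAC/TSA treatment (Rrm2, Slc29a1 and Tyms, 33.3%), none was downregulated, and 6 did not pass. The background was wide: 22.5% of all 9192 genes were called higher and 21.4% lower. The treated and untreated arrays did not overlap for 5 of the 9 genes, against 63.9% of all genes. The median difference of the 9 genes was 0.26, beside 0.01 over all genes. By probe, 5 of the 16 were called higher and 1 lower, beside 19.3% in each direction and 38.7% in either over all kept probes, and 43.9% of all genes were called in either direction. At an FDR of 0.05 the brighter Samhd1 probe passed too, which made 4 genes higher, beside 29.6% of all genes higher and 27.7% lower. All 9 representative probes were detected on every array, so that none was kept through 1 group alone.

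**Figure D1:**
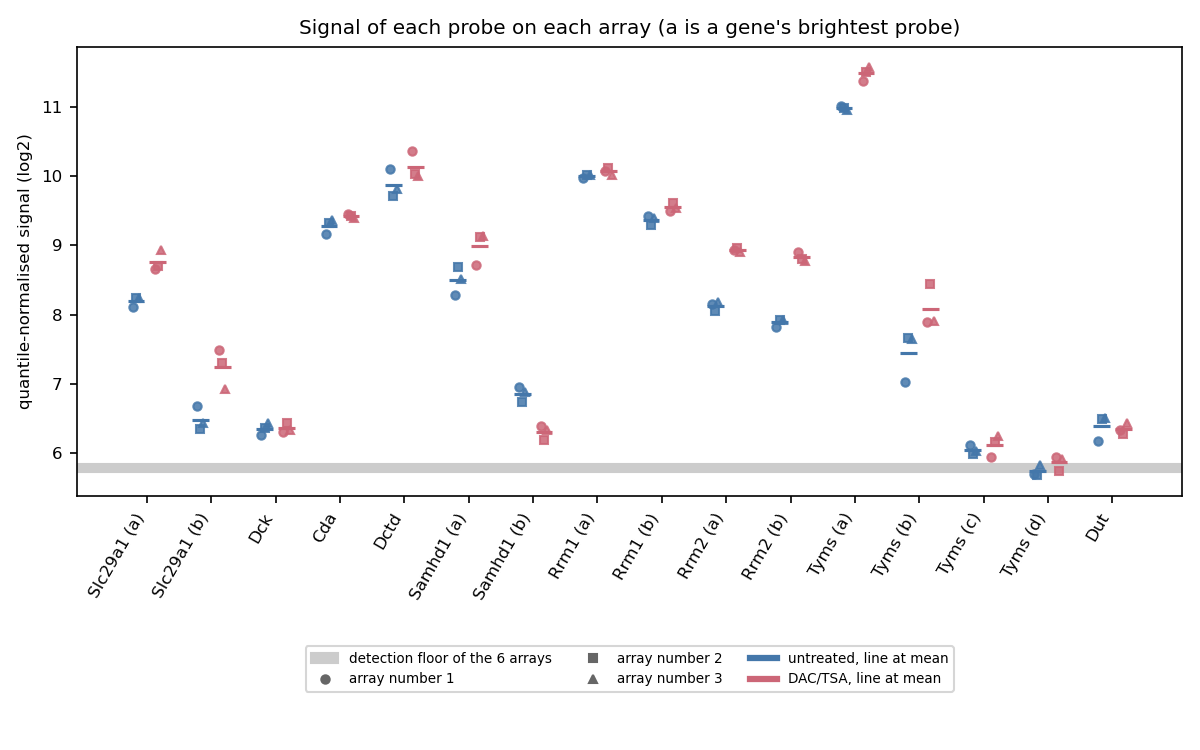
Quantile-normalised log2 signal (vertical axis) of the 16 probes of 9 genes on each array. Blue symbols are the 3 untreated and red symbols the 3 DAC/TSA-treated arrays, the symbol shape gives the array number, short lines are group means and the grey band is the range of the lowest detected signal on the 6 arrays (5.73 to 5.84). Both Rrm2 probes are clear of overlap, the Samhd1 probes move in opposite directions, and Dck and Dut lie near the band.

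Uptake was represented by Slc29a1, the equilibrative nucleoside transporter ENT1, which rose. Its brighter probe (ILMN_2888144) read 8.11, 8.24 and 8.24 in untreated cells and 8.66, 8.70 and 8.93 in treated cells. Every treated array thus lay above every untreated array. The difference was 0.57 ± 0.09 (SE), a 1.48-fold rise with a 95% interval of 1.28 to 1.72 (adjusted p = 0.000577). The second probe (ILMN_2638299), dimmer and annotated to another transcript, read 6.68, 6.35 and 6.43 against 7.49, 7.31 and 6.93. It showed the same direction without overlap, with a difference of 0.75 ± 0.14 (adjusted p = 0.00125). When arrays were scaled by their medians instead, the brighter probe kept its difference (0.64) but not its call (adjusted p = 0.029, over a range of 4.8e-05 to 0.029 in all alternatives), while the dimmer probe was still called (0.86, adjusted p = 0.0015).

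The activating enzyme and the first of the deaminases showed no called difference. Dck, the kinase that makes decitabine monophosphate and the rate-limiting step of the salvage of deoxycytidine, was dim. It read 6.26, 6.36 and 6.43 in untreated cells and 6.31, 6.44 and 6.34 in treated cells, and was detected on all 6. The groups overlapped entirely, and the difference was 0.01 with a 95% interval of -0.18 to 0.20 (adjusted p = 0.922). As raw signal the probe gave 65.87 to 101.5, close to the lowest detected signals of 52.46 to 58.45, so that a change of Dck RNA is read only in part. Cda, cytidine deaminase, which converts decitabine to an inactive uridine compound, was bright. It read 9.16, 9.32 and 9.37 in untreated cells and 9.45, 9.43 and 9.39 in treated cells. Although the treated arrays were all higher, the gap was small, and the difference of 0.14 (95% interval -0.05 to 0.33) did not pass (adjusted p = 0.192).

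Dctd, deoxycytidylate deaminase, acts on dCMP and on decitabine monophosphate and yields the substrate of thymidylate synthase. It read 10.10, 9.71 and 9.82 in untreated cells and 10.37, 10.03 and 10.00 in treated cells. The groups overlapped, since untreated array 1 was higher than treated arrays 2 and 3. Each treated array lay above the untreated array of the same number, although the labels do not say that these arrays were paired. The difference of 0.26 (95% interval -0.02 to 0.54) did not pass (adjusted p = 0.114) and was called with the replicate number as a block (adjusted p = 0.00729, over a range of 0.00729 to 0.356 in all alternatives).

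Samhd1, the dNTP triphosphohydrolase that lowers the pools of deoxynucleotides and cleaves the decitabine triphosphate, gave opposite readings from its probes. The brighter probe (ILMN_1221736) read 8.28, 8.69 and 8.52 in untreated cells and 8.72, 9.12 and 9.13 in treated cells. These groups did not overlap, although treated array 1 was only just above untreated array 2. The difference was 0.49 ± 0.14 (1.41-fold, 95% interval 1.14 to 1.74) and lay just outside the threshold (adjusted p = 0.0111). With the replicate number as a block it was called (adjusted p = 0.000118). It was also called without untreated array 2 (adjusted p = 0.00792) and without treated array 1 (adjusted p = 0.00191). Under median scaling the difference was 0.56 and was not called (adjusted p = 0.121), the highest adjusted p of this probe by itself.

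The dimmer Samhd1 probe (ILMN_1232707), annotated to another cDNA, read 6.96, 6.74 and 6.88 in untreated cells and 6.39, 6.19 and 6.34 in treated cells. All treated arrays were lower, and the difference of -0.56 ± 0.09 was called, a 1.47-fold fall with a 95% interval of 1.28 to 1.7 (adjusted p = 0.000574). Under median scaling it was -0.45 and was not called (adjusted p = 0.0184). The probes thus differed by 1.05 in their log2 differences, and 95.6% of the 3342 genes with several probes had a smaller gap, the median gap being 0.23. Calls in opposite directions by probes of the same gene were found for 60 of these genes (1.8%), and Samhd1 was not among them, since its brighter probe was not called. RefSeq lists 3 curated mRNAs of Samhd1, and which of them each probe reads was not determined here. The mean of both probes gave a difference of -0.03 (adjusted p = 0.745), so that the direction of Samhd1 depends on the probe.

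**Figure D2:**
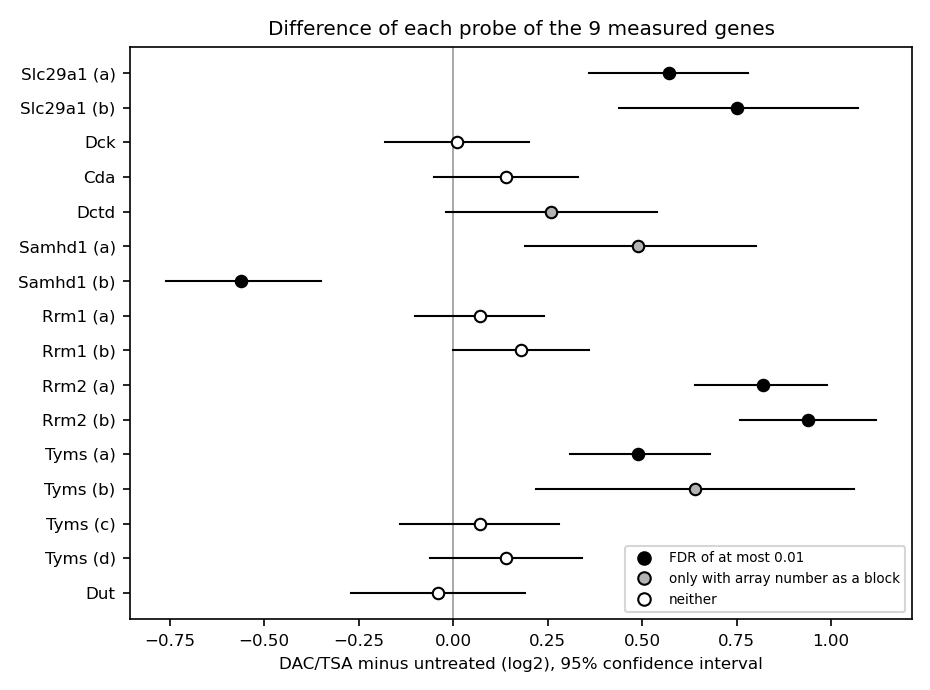
Difference in log2 signal, DAC/TSA-treated minus untreated, for the 16 probes (horizontal axis), with 95% confidence intervals from limma as lines. Black symbols passed an FDR of 0.01, grey symbols passed only with the replicate number as a block, and open symbols passed in neither fit, and the Samhd1 probes stand on opposite sides of 0 at 0.49 and -0.56.

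The subunits of ribonucleotide reductase, which reduces ribonucleotides to deoxynucleotides, were not called alike. Rrm2, the small subunit, whose amount follows the S phase and which carries the tyrosyl radical, showed the highest rise of the set. Its brighter probe (ILMN_2819319) read 8.15, 8.05 and 8.18 in untreated cells and 8.94, 8.97 and 8.91 in treated cells. The arrays of each group lay within a narrow range, far from the other group. The difference was 0.82 ± 0.08, a 1.76-fold rise with a 95% interval of 1.56 to 1.99 (adjusted p = 1.39e-05). The second probe (ILMN_2714565) read 7.82, 7.93 and 7.93 against 8.91, 8.81 and 8.78. Its groups were as far apart, with a difference of 0.94 ± 0.08 (1.92-fold, adjusted p = 6.79e-06). Both probes were called under each of the alternatives run, with adjusted p-values up to 0.00237.

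Rrm1, the large subunit that holds the catalytic and the regulatory sites, did not pass with either of its probes. The brighter probe (ILMN_2977624) read 9.97, 10.01 and 10.01 in untreated cells and 10.08, 10.12 and 10.01 in treated cells. The groups touched, and the difference was 0.07 with a 95% interval of -0.10 to 0.24 (adjusted p = 0.454). The second probe (ILMN_1258715) gave 0.18 with an interval of 0.00 to 0.36 (adjusted p = 0.0836), its treated arrays of 9.50 to 9.61 all above its untreated arrays of 9.29 to 9.42. The balance of Rrm1 over Rrm2, the log2 signal of the former minus that of the latter on each array, was lower by 0.74 after treatment, and no treated array overlapped with an untreated array. The exact two-sided permutation p was 0.1, the smallest that 3 against 3 arrays allow (0.125 after adjustment over 5 balances).

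Rrm2b, the p53-inducible small subunit that can replace Rrm2 outside the S phase, also rose. It read 7.50, 7.56 and 7.45 in untreated cells and 8.27, 8.21 and 8.20 in treated cells, a 1.65-fold rise (difference 0.72 ± 0.08, adjusted p = 3.03e-05). Both small subunits were therefore upregulated, each without overlap of the groups. The other 2 measured partners of the enzyme, of the thioredoxin and glutaredoxin systems, did not pass.

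Tyms, thymidylate synthase, which methylates dUMP to dTMP, rose in its brightest probe. This probe (ILMN_2484707) read 11.01, 10.99 and 10.96 in untreated cells and 11.37, 11.51 and 11.57 in treated cells. The untreated arrays were almost equal and all lay below the treated arrays. The difference was 0.49 ± 0.08 (1.41-fold, 95% interval 1.24 to 1.6, adjusted p = 0.000604), and under median scaling it was 0.56 and no longer called (adjusted p = 0.0268, over a range of 0.000143 to 0.0268 in all alternatives).

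The other Tyms probes were dimmer, and none of them was called in the main fit. The probe ILMN_1247173 gave 7.03, 7.67 and 7.65 against 7.90, 8.45 and 7.91, where untreated array 1 and treated array 2 stood apart. Its difference of 0.64 ± 0.19 did not pass (adjusted p = 0.0163) and was called with the replicate number as a block (adjusted p = 0.000325). ILMN_2441895 differed by 0.07 (adjusted p = 0.559) at signals of 5.95 to 6.25, close to the detection limit. ILMN_2441899, with a difference of 0.14 (adjusted p = 0.211), was detected on no untreated array and on all 3 treated arrays. RefSeq also lists a transcribed Tyms pseudogene, and reads of it cannot be told apart from those of the gene without the probe sequences, which were not used here.

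Dut, the dUTPase that keeps uracil out of DNA and supplies dUMP to thymidylate synthase, was dim and did not pass. It read 6.18, 6.49 and 6.51 in untreated cells and 6.34, 6.28 and 6.43 in treated cells. The groups overlapped, and the difference of -0.04 had a 95% interval of -0.27 to 0.19 (adjusted p = 0.748). Its sign turned under median scaling, where it was 0.05. The balance of Tyms over Dut rose by 0.54 without overlap of the arrays (exact permutation p = 0.1, adjusted 0.125).

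The balances of activation over inactivation were compared in the same way. Dck relative to Cda was lower by 0.13 after treatment, and Dck relative to the brighter Samhd1 probe was lower by 0.48, in both cases without overlap (exact permutation p = 0.1, adjusted 0.125). Dck relative to Dctd was lower by 0.25 with overlapping arrays (exact permutation p = 0.3, adjusted 0.3). Within same-numbered arrays this balance fell evenly, with differences of -0.23, -0.24 and -0.27. All 5 balances kept one sign in all 3 pairs, and the exact two-sided sign-flip test over pairs gave 0.25 for each, the smallest it can give with 3 pairs. Dck itself differed by 0.01 and Dut by -0.04, both from dim probes. The balances of Dck thus follow the genes set against it, and the balance of Tyms over Dut follows Tyms. The dimmer Samhd1 probe differed by -0.56, and the mean of both Samhd1 probes by -0.03. The sign of the Samhd1 balance thus depends on the probe, and it was formed with the brighter one only. The balance of Slc29a1 over Slc29a2 could not be formed.

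With the replicate number as a block, 5 of the 9 genes were called higher (Rrm2, Slc29a1, Tyms, Samhd1 by its brighter probe, and Dctd), beside 29.4% of all genes, and none was called lower, beside 27.3%. With median scaling Rrm2 alone was called among the 9 genes by their brightest probes, beside 13.3% of all genes higher and 8.44% lower.

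Other genes of nucleotide supply were taken from 6 lists, of which 52 of 78 genes were measured. In these lists 15 genes were called higher (28.8%) and 6 lower (11.5%), against 22.5% and 21.4% of all genes, and their median difference was 0.21. With median scaling 9 were called higher and 2 lower, beside 13.3% and 8.44% of all genes. Among 16 nucleoside and nucleotide kinases 5 rose (31.2%) and 3 fell (18.8%). Uck2, the uridine-cytidine kinase that activates azacytidine but not decitabine, read 11.52, 12.01 and 12.13 against 12.74, 12.94 and 12.95, a rise of 0.99 ± 0.14 (adjusted p = 0.000251) that all 3 of its probes showed. Guk1, guanylate kinase, rose by 0.77 (adjusted p = 0.000141), and Nme1, a nucleoside diphosphate kinase that can form the triphosphate, rose by 0.76 (adjusted p = 2.19e-05). Cmpk1, the UMP/CMP kinase that acts on the product of Dck, read 9.56, 9.41 and 9.44 against 10.12, 9.94 and 9.94. All treated arrays were higher, and the rise was 0.53 ± 0.09 (1.44-fold, adjusted p = 0.000552).

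The thymidine kinase Tk1, which rises in the S phase together with Rrm2 and Tyms in many cells, went the other way. It read 10.25, 10.28 and 10.14 in untreated cells and 9.73, 9.67 and 9.77 in treated cells, and its difference of -0.50 ± 0.08 was called (adjusted p = 0.000512). Its second probe gave a difference in the same direction, -0.33, and was not called. Ak4, a mitochondrial adenylate kinase, fell by 1.44 (adjusted p = 1.42e-06), and the cytosolic Ak1 fell by 0.47 (adjusted p = 0.00981). The mitochondrial deoxynucleoside kinases did not pass, with differences of 0.16 for Dguok (adjusted p = 0.159) and 0.06 for Tk2 (adjusted p = 0.677).

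Of 5 measured transporters 2 were called higher (40%) and 0 lower, beside 22.5% and 21.4% of all genes. These were the exporters Abcc4 (0.74, adjusted p = 9.63e-05) and Abcc5 (0.71, adjusted p = 0.000147), which carry nucleotide analogues out of cells. The concentrative transporters Slc28a1, Slc28a2 and Slc28a3 had no named probe kept. Among 13 genes of nucleotide breakdown 4 rose (30.8%) and 1 fell (7.69%), again beside 22.5% and 21.4% of all genes. Ada, adenosine deaminase (0.80, adjusted p = 0.000174), Entpd5, an ectonucleotidase family member (0.68, adjusted p = 8.27e-05), and Nudt1, which cleaves oxidised dNTPs (0.52, adjusted p = 0.00393), rose. The other probe of Entpd5 differed by 0.10 and was not called. Upp1, uridine phosphorylase, fell by 1.10 (adjusted p = 2.15e-06), and all 3 of its probes were called.

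Of 8 genes of the folate cycle, which feeds thymidylate synthase, 2 rose and 2 fell. These shares of 25% each lie near the 22.5% and 21.4% of all genes. The purine enzymes Gart (0.61, adjusted p = 0.000428) and Atic (0.57, adjusted p = 0.000315), which use folate carbon, rose. Of the 3 Atic probes, which ran from 0.27 to 0.57, 1 was called. Shmt2 (-0.59, adjusted p = 0.000245) and Mthfd2 (-0.53, adjusted p = 0.00098) of the mitochondrial branch fell. Their second probes differed by -0.25 (Shmt2) and -0.26 (Mthfd2) and were not called. In pyrimidine synthesis 1 of 7 genes rose (14.3%, beside 22.5% of all genes). This was Umps, the UMP synthase (1.16, adjusted p = 9.3e-06), although its 3 probes ranged from 0.09 to 1.16 and 1 of them was called.

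**Figure D3:**
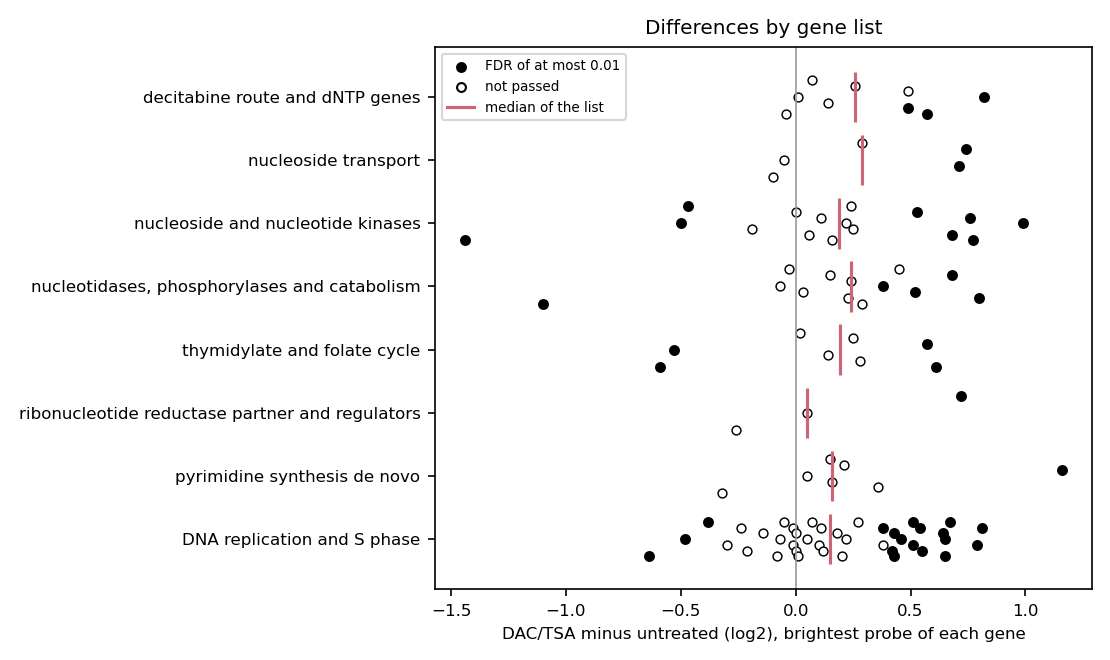
Difference in log2 signal, DAC/TSA-treated minus untreated (horizontal axis), of the brightest probe of each measured gene, by gene list. Black symbols passed an FDR of 0.01, open symbols did not, and red lines are list medians, which lie between 0.05 and 0.29 for the 8 lists shown.

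Since Rrm2 and Tyms follow the S phase, genes of DNA replication were set beside them. Of 44 listed genes 40 were measured, and 15 were called higher (37.5%) and 3 lower (7.5%), beside 22.5% and 21.4% of all genes, with a median difference of 0.15. Without treated array 2 the number called higher was 9, while over all 9192 genes it was 1582, against 2072 in the main fit. With median scaling 6 were called higher and 0 lower, where 13.3% and 8.44% of all genes were called. The highest differences were those of cyclin E2, Ccne2 (0.81, adjusted p = 5.3e-05), and of Rpa1, which binds single-stranded DNA (0.79, adjusted p = 6.11e-05). The lowest were those of the polymerase delta subunit Pold3 (-0.64, adjusted p = 0.000187) and of the transcription factor E2f1 (-0.48, adjusted p = 0.000482). Rrm2, at 0.82, was level with the highest of this list, and Tyms, at 0.49, lay within it. The share of cells in the S phase was not measured, and its part in the differences of Rrm2 and Tyms was not tested.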

How the data were processed

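Total RNA of 3 untreated and 3 DAC/TSA-treated cultures of TC-1/A9 was hybridised to Illumina Mouse WG-6 arrays, and the titles and treatment labels of the samples gave the groups. The authors exported signals with BeadStudio, and the deposited intensity is linear, neither normalised nor background-subtracted. A deposited detection p-value stands beside each intensity. The authors' log2 values, normalised with lumi and limma, were used as an alternative and differed from the values used here by at most 0.0125.

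Intensities of 45281 probes were quantile-normalised over all probes and put on the log2 scale. The 17445 probes whose detection p was 0.01 or lower on some array were kept. Of these, 13943 carried 1 gene symbol in the array annotation, 7 several, and 3495 were unnamed here. Groups were compared by lmFit and eBayes of limma 3.58.1 in R 4.3.3, with Benjamini-Hochberg adjustment over the kept probes and an FDR of 0.01. The script was tested on simulated data. Members and gene lists were chosen with earlier results of these data known, and no list was tested as a whole. All probes of the members were described. Of the other lists, the called genes detected on every array were named, up to 3 in each direction, and Rrm2b, Tk1, Cmpk1, Dguok and Tk2 always. The p53 targets that were not called were named too, after their values were seen. A further gene of this rule is not reported here. Of the replication list, the 2 genes with the highest and the 2 with the lowest difference were named. The markers named were chosen after their values were seen.

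The sample titles number the arrays 1 to 3 in each group. Arrays of the same number deviated together from their group means (r = 0.63, 0.24 and 0.36 over probes), so that the number also entered a fit as a replicate block, beside the unblocked one. Treated array 3 also correlated with untreated array 2 (0.37), and treated array 2 with untreated array 3 (0.38). The labels do not say that arrays of the same number were paired or shared a batch. Other alternatives were median scaling, neqc, normexp with an offset of 50, no detection filter, detection on every array, the mean of a gene's probes, an FDR of 0.05, and each array left out in turn. Precision is limited by 3 arrays per group. Promoter windows came from the RefSeq annotation of GRCm38.p6 and were searched in Python 3.11.15 with pandas 2.3.3.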

Additional observations from a re-analysis of the deposited data

How the results depend on the processing

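Rrm2 was called under each alternative run. Median scaling, which put the median of all genes at 0.09, lowered most counts: 1219 genes were called higher and 776 lower, against 2072 and 1964, which moved the share of higher calls from 51.3% to 61.1%. Under it 1 member was called higher, 3 member probes higher and 0 lower, 9 genes of the 6 pathway lists higher and 2 lower, and 6 replication genes higher and 0 lower, and the cause was not tested. With the replicate block 5 members and 8 member probes were called higher, through Dctd, the brighter Samhd1 probe and a dimmer Tyms probe, and the block changed no other call of a member probe. It called 2706 genes higher and 2506 lower. Leaving out 1 array in turn gave 3 to 4 members called higher and 9 to 13 replication genes called higher. Over all 9192 genes, 1582 to 2192 were called higher in these fits. The brighter Samhd1 probe was also called without a detection filter and without both arrays numbered 1. At an FDR of 0.05, 4 members were called higher.

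Reversed signs came from differences near 0 or from disagreeing probes. Dut, at -0.04, was 0.05 under median scaling and ran from -0.15 to 0.01 with 1 array left out. Dck, at 0.01, ran from -0.03 to 0.05 in the same way and was -0.01 without both arrays numbered 1. Samhd1 was -0.03 as the mean of its probes. The sign of neither Dut nor Dck can be read at these signals, which lie close to the detection limit. Of the alternative values of the member probes' differences, 214 kept their direction and side of the threshold, 8 came to pass it, 3 no longer passed and 7 changed sign. No balance changed direction under median scaling, neqc, normexp or the authors' values, or with arrays left out. The mean over same-numbered arrays, an alternative chosen after seeing the data, equals the main difference by construction and tests nothing. Changing the detection filter left the signals in the balances as they were, so it could not move them. The balance of Dck over Samhd1 used the brighter Samhd1 probe throughout, so the disagreement of the Samhd1 probes could not show in it.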

Other observations

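Rrm2b is a p53 target, and 17 p53 target genes were listed beside it, of which 13 were measured. Of these 4 rose and 1 fell. Cyclin G1, Ccng1, rose by 0.69 (adjusted p = 0.000222), and Mdm2, the ubiquitin ligase that lowers p53, rose by 0.51 (adjusted p = 0.000394). Trp53inp1 (0.44, adjusted p = 0.000858) also rose, while its other probe differed by 0.13 and was not called. Zmat3 fell by 0.86 (adjusted p = 2.28e-05). By their brightest probes, Cdkn1a (-0.23, adjusted p = 0.0289), Bbc3, Sesn1, Sesn2 and Aen lay below 0 and were not called. Gadd45a (0.52, adjusted p = 0.0118), Polk and Plk2 lay above 0 and were not called by their brightest probes. The 2 Gadd45a probes ran from 0.52 to 0.71, and 1 of them was called higher. The 3 Cdkn1a probes ran from -0.33 to -0.15, and 1 of them was called lower. The list had a median difference of 0.15, beside 0.72 for Rrm2b and 0.01 over all genes, and its called shares of 30.8% higher and 7.69% lower stood beside 22.5% and 21.4% of all genes.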
